A study of Ovis aries with 6 samples.

Results

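The miR-17-92, miR-106a-363 and miR-106b-25 clusters were examined in small RNA from longissimus muscle, a muscle of the loin, of 2 sheep breeds. Each breed, Qianhua Mutton Merino (below QHMM) or Small Tail Han (below STH), had 3 libraries. A name was taken as a member when it was miR-17, miR-18a, miR-19a, miR-19b, miR-20a, miR-92a, miR-106a, miR-106b, miR-93 or miR-25, with or without an arm or locus suffix. The species prefix was ignored, and where a name had several rows the one with most counts was used. This gave 22 member names, from 47 of the 11161 deposited rows, among 10430 names in all, and each of the 10 miRNAs was present by name. Per the labels the sheep lived under natural conditions, no agent is named, and no age is stated. The labels do not tie each library to an animal of its own. A p-value here thus sets a breed difference only against the spread among these libraries, which may be technical. Total counts over names ran from 5572863 to 7930203 per library. Levels are given as CPM, that is, counts scaled to the total over all names of the same library. The muscle markers miR-1 (with miR-1b), miR-133 and miR-206 took 450032 to 545873 CPM of each library, 13 of their 15 names being present in every library. Most of this was the name miR-1b, with 315840 to 419493 CPM.

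The miR-17-92 cluster is one primary transcript that is cut into several hairpins, and it is known as a growth-promoting locus that is switched on by MYC and E2F factors in dividing cells. Its copies, miR-106a-363 on the X chromosome and miR-106b-25 in an intron of MCM7, a gene of the DNA replication helicase, arose by duplication. Their mature products repress brakes on growth and survival such as the cell cycle inhibitor p21 and the death factor BIM. They are high in progenitor cells and fall when cells leave the cell cycle. Several of them are also abundant in blood cells and endothelium. In the RefSeq table of the assembly ARS-UI_Ramb_v3.0, MIR17 and MIR19B lie on chromosome 10, MIR106A lies on chromosome X, and MIR106B and MIR25 lie inside MCM7 on chromosome 24. The predicted rows of the deposited table place miR-19a, miR-20a and a miR-92a locus on chromosome 10 as well. A further miR-92a locus was placed on chromosome X, and miR-93 on chromosome 24.

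Since a miRNA finds its targets mainly through its seed, bases 2 to 8 from the 5′ end, the leading arm of each miRNA is shown as deposited, with these bases in capitals. Both miR-92a loci and both arms of miR-20a and miR-92a enter the results below, so the minor arms of these hairpins are shown last.
miR-17-5p: cAAAGTGCttacagtgcaggta
miR-20a-5p: tAAAGTGCttatagtgcaggta
miR-106a: aAAAGTGCttacagtgcaggt
miR-106b: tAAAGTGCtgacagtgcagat
miR-93-5p: cAAAGTGCtgttcgtgcaggta
miR-18a-5p: tAAGGTGCatctagtgca
miR-19b: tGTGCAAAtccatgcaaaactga
miR-19a-3p: tTGTGCAAatctatgcaaaactg
miR-92a-3p: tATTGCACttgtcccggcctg
miR-25: aTTGCACTtgtctcggtctga
miR-20a-3p: aCTGCATTatgagcacttaaag
miR-92a-1-5p: aGGTTGGGatcagttgcaatgc

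The first 5 sequences carry 1 seed, AAAGTGC, although they come from 3 chromosomes. The row of miR-18a-5p differs from miR-17-5p inside the seed, by A4G, with positions counted from the 5′ end of miR-17-5p. The deposited miR-19a-3p starts 1 base earlier than miR-19b, and the deposited miR-25 starts 1 base later than miR-92a-3p. Their capitals are therefore shifted by 1 base against those of their partner. Aligned without the shift, miR-19b and miR-19a-3p differed at 1 of 22 bases, C11T counted in miR-19b. miR-92a-3p and miR-25 differed at 2 of 20 bases, C14T and C18T counted in miR-92a-3p.

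Several of these sequences are close enough that the counting decides which name a read is given. miR-17-5p and miR-106a share 20 nt in a row and differed over 21 aligned bases at the first base alone, C1A. miR-17-5p and miR-20a-5p differed at C1T and C12T. The row named miR-18a-5p is a predicted locus on chromosome X, where the other arm of the same hairpin is named miR-18b-3p. Its 18 listed bases are also the first 18 of the rat miR-18a-5p row. On chromosome X the cluster miR-106a-363 holds miR-18b. The reads of this row are given below under the name miR-18a-5p, as deposited. No row outside the members shared 15 nt or more in a row with a member, on either strand. This search does not see near copies with a difference inside the run. Outside the members, miR-20b-5p differed from miR-17-5p at 1 of 22 bases, and miR-92b-3p from miR-92a-3p at 2 of 21.

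Rows with the same sequence did not share their reads evenly. The sheep miR-106b row held 52380 counts over the 6 libraries and the rat row of identical sequence held 1. The sheep miR-19b row held 555093 counts and the identical rat row, which stands for the name miR-19b-3p, held 127. Among predicted loci the counts were alike instead. The chromosome X locus of miR-92a-3p held 11617 counts against 13278 at the chromosome 10 locus of the same sequence, between 83.4% and 89.4% in each library. miR-93-5p held 13267 counts, and a second predicted locus on chromosome 24 with its reverse complement sequence held 13257, between 95.7% and 105% per library. For miR-93-3p the reverse complement locus held 441 counts against 446. How reads were assigned to loci and strands is not given in the sources used here, and a read may stand at both rows of such a pair. All levels below use 1 row per name, so that neither pair is added up.

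Of the 10 miRNAs, miR-19b stood far above the rest in muscle. miR-19b, whose seed sets it apart from the miR-17 group, had 11801, 12828 and 11349 CPM in QHMM replicates 1, 2 and 3 and 15660, 13112 and 14437 CPM in STH replicates 1, 2 and 3. It was the 10th name of the whole table by total count. miR-106b followed with a mean of 1231 ± 318 CPM (SD, n = 6) and miR-17-5p, the miRNA that gives the cluster its name, with 673 ± 224 CPM (SD, n = 6). The mean of miR-19b was 10.7 times that of miR-106b, and it was higher in 6 of 6 libraries with no overlap of their ranges.

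Below these, levels lay closer together. miR-25 had 360 ± 57.6 CPM (SD, n = 6), miR-93-5p 315 ± 66.6 CPM and miR-92a-3p 310 ± 101 CPM. miR-25 exceeded miR-93-5p in 5 of 6 libraries, and miR-93-5p exceeded miR-92a-3p in only 3 of 6, so that these 3 could not be put in a firm order. miR-106a had 231 ± 108 CPM (SD, n = 6) and miR-18a-5p 164 ± 77.0 CPM. Each of miR-106b, miR-17-5p, miR-106a and miR-18a-5p exceeded the next name of the order in 6 of 6 libraries although their ranges over the libraries overlapped. miR-92a-3p exceeded miR-106a in 5 of 6 libraries. At the low end, miR-20a-5p had 78.5 ± 50.2 CPM and miR-19a-3p 14.3 ± 2.05 CPM, again without overlap of their ranges. These ratios compare counts of whole mature sequences, and preferences of the library chemistry for particular ends were not corrected. How reads were divided between near copies was not tested, and miR-19a-3p, a near copy of miR-19b, had no row of a known sheep miRNA.

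**Figure D1:**
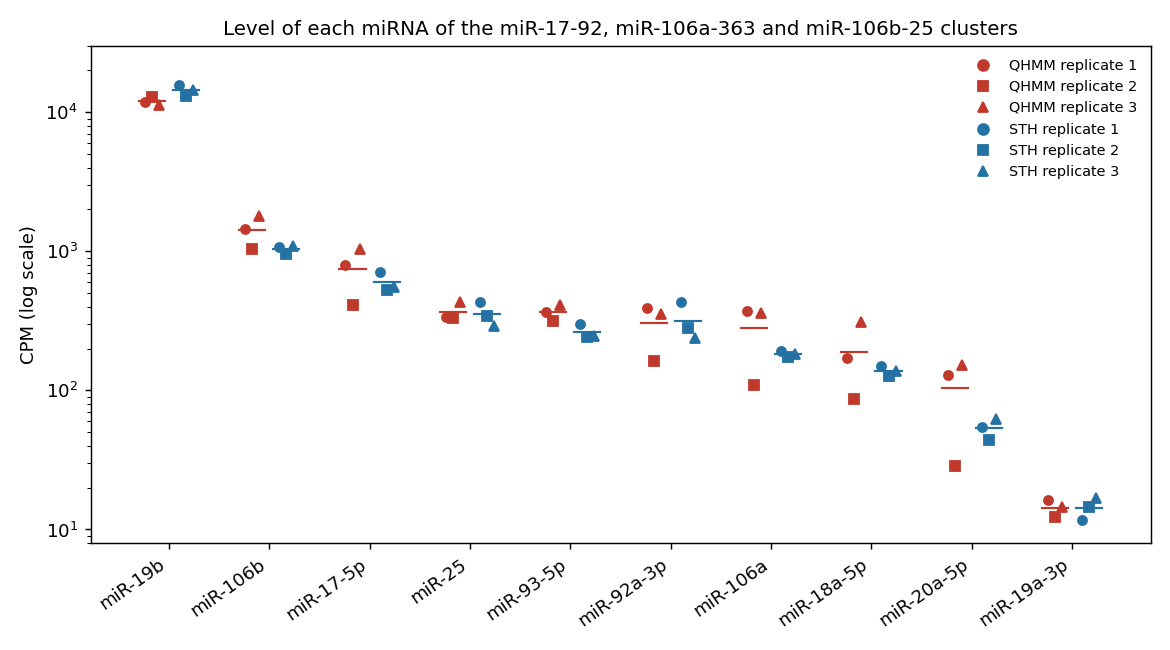
CPM (log scale) of the leading arm of each of the 10 miRNAs, ordered by mean, in 3 QHMM (red) and 3 STH (blue) libraries; points are libraries, with a symbol for each replicate, and short lines are breed means. miR-19b lies at 11349 CPM or more in every library, and QHMM replicate 2 lies below all other libraries for 5 names from miR-17-5p to miR-20a-5p.

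Rows of miRNAs that are cut from the same transcript held very different counts. From miR-17-92 itself, the miR-19a-3p row had 14.3 CPM and miR-17-5p had 673 CPM. The first is the row of a predicted locus and the second that of a known sheep miRNA. The part of read assignment in this difference was not tested. miR-19b is cut from both miR-17-92 and miR-106a-363, and its 1 row does not separate these sources. All members together, with 1 name per arm, took 1.54% to 1.91% of each library, and miR-19b with miR-19a-3p made up 70.1% to 83.6% of this sum. The 5 names with the seed AAAGTGC, through which the cluster acts on p21, summed to 2529 ± 739 CPM (SD, n = 6), with miR-106b as the most abundant of them. miR-92a-3p and miR-25 summed to 670 ± 146 CPM (SD, n = 6). By locus, the 3 miRNAs of miR-106b-25 summed to 1906 ± 410 CPM (SD, n = 6), and miR-17, miR-18a, miR-19a and miR-20a to 930 ± 346 CPM (SD, n = 6). The latter sum contains the chromosome X row named miR-18a-5p. It leaves out miR-19b and miR-92a-3p, which can come from miR-17-92 or miR-106a-363 and summed to 13508 ± 1631 CPM (SD, n = 6). These sums therefore do not compare the whole output of the clusters.

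5 of the 10 miRNAs, miR-20a-5p, miR-18a-5p, miR-106a, miR-17-5p and miR-92a-3p, had a range of at least 2.41-fold within QHMM. Over the 537 names at 10 CPM or more, the median range was 1.64-fold within QHMM and 1.47-fold within STH. For miR-19b, miR-25 and miR-19a-3p the range was wider within STH. miR-20a-5p, a near copy of miR-17-5p, had 130, 28.7 and 152 CPM in QHMM replicates 1, 2 and 3 and 54.4, 44.1 and 62.0 CPM in STH replicates 1, 2 and 3. The QHMM libraries thus stood on both sides of the 3 STH libraries, a 5.30-fold range against 1.41-fold within STH. Of the 537 names, 2.61% had a wider range within QHMM than miR-20a-5p. miR-106a, from chromosome X, had 374, 109 and 358 CPM in QHMM and 192, 175 and 182 CPM in STH. Here too QHMM replicate 2 was lowest, replicates 1 and 3 were highest, and the STH libraries lay between them within a 1.10-fold range.

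miR-18a-5p had 170, 86.3 and 310 CPM in QHMM and 151, 127 and 138 CPM in STH. miR-17-5p had 798, 413 and 1036 CPM in QHMM and 713, 530 and 550 CPM in STH. Both were lowest in QHMM replicate 2 and highest in QHMM replicate 3. miR-92a-3p, known for its role in endothelium, had 394, 163 and 352 CPM in QHMM and 431, 281 and 237 CPM in STH, and was also lowest in QHMM replicate 2. In all, 5 of the 10 miRNAs were lowest in that library, where 19.7% of the 537 names were, and 5 were highest in QHMM replicate 3, where 18.6% of the names were. These members share sequence, a transcript or both, and are not independent of each other. QHMM replicate 2 also had the lowest total count over names, and the part of depth in this pattern was not tested.

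The miR-106b-25 cluster on chromosome 24 varied less. miR-106b had 1440, 1033 and 1783 CPM in QHMM and 1081, 957 and 1092 CPM in STH. miR-93-5p had 368, 316 and 412 CPM in QHMM and 302, 244 and 246 CPM in STH, so that its lowest QHMM library was above its highest STH library. miR-25, which shares its transcript with both, had 336, 334 and 430 CPM in QHMM and 432, 341 and 290 CPM in STH, and here the breeds overlapped. The range within QHMM was between 1.29-fold (miR-25) and 1.73-fold (miR-106b) for the 3 names, where the median of the 537 names was 1.64-fold. The row of miR-19a-3p ran from 12.2 to 16.3 CPM in QHMM and from 11.7 to 16.8 CPM in STH.

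**Figure D2:**
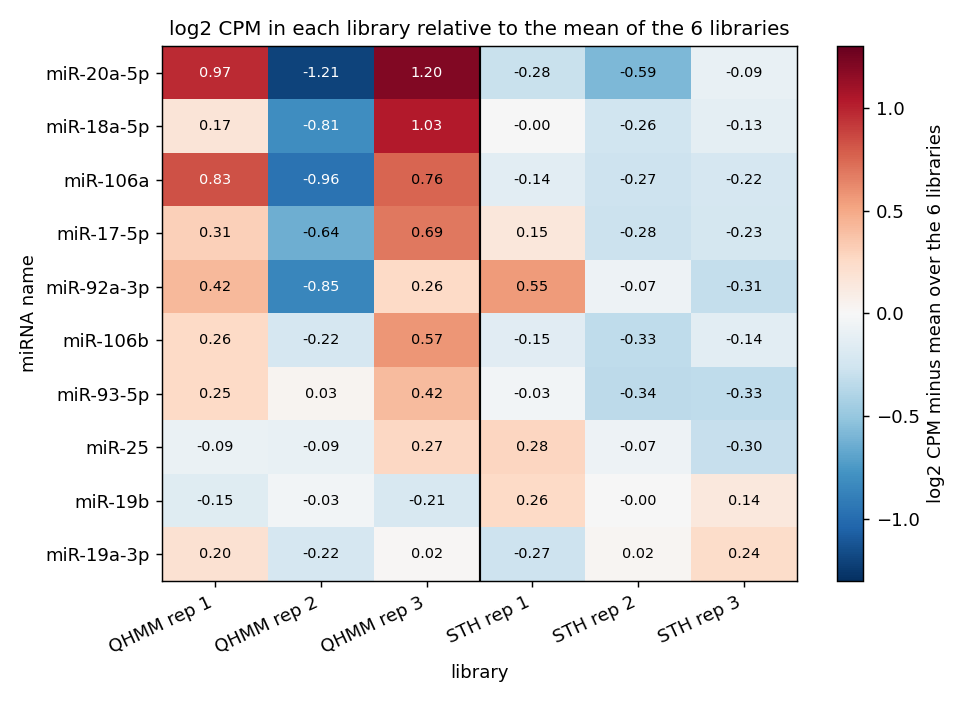
log2 CPM of the leading arm of each miRNA in each library minus its mean over the 6 libraries, with QHMM libraries left and STH libraries right of the line; the values are printed in the cells. QHMM replicate 2 is blue for miR-20a-5p (-1.21), miR-18a-5p, miR-106a, miR-17-5p and miR-92a-3p, and near 0 for miR-93-5p (0.033), miR-25 and miR-19b. Between these lie miR-106b and miR-19a-3p, both at -0.22 in that library.

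Markers of blood and vessels also varied among these libraries. miR-451-5p, made in red blood cells, had 18703, 19640 and 82384 CPM in QHMM and 7083, 13597 and 8335 CPM in STH, so that QHMM replicate 3 stood apart. Its partner miR-144-3p had 157, 109 and 1329 CPM in QHMM and 72.8 to 104 CPM in STH. The other arm of that hairpin, miR-144-5p, had 81.9, 151 and 563 CPM in QHMM and 97.2 to 136 CPM in STH. The red blood cell list summed to 18967 to 84308 CPM in QHMM and 7299 to 13838 CPM in STH, with 4 of its 8 names present in every library. The other 4, miR-451a, miR-451-3p, miR-486a-5p and miR-486-3p, were at 0 in at least 1 library and at most at 2.15 CPM. miR-486, present in every library, had 24.5, 22.6 and 30.6 CPM in QHMM and 25.4, 19 and 13.1 CPM in STH. For this name the breeds overlapped, and QHMM replicate 3 did not stand apart as it did for miR-451-5p. The endothelial miR-126 list ran from 15567 CPM in QHMM replicate 3 to 32074 CPM in QHMM replicate 2 and from 27808 to 31360 CPM in STH, with 4 of 5 names in every library. White blood cell markers summed to 1790 to 1966 CPM in QHMM and 1189 to 1465 CPM in STH (6 of 9 names in every library). The smooth muscle list ran from 32472 to 44575 CPM in QHMM and from 40233 to 53020 CPM in STH (4 of 6 names). The part of these cells in the levels of the members was not tested, and more cells of a type and more RNA per cell cannot be told apart in whole muscle.

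Each hairpin gives 2 arms, and usually only 1 of them is kept. For miR-17, miR-19b and miR-25, the names of the other arm were miR-17-2-3p, miR-19b-2-5p and miR-25-5p. They had 3, 1 and 1 counts over all 6 libraries, and the row named miR-18a-3p had 1. These rows carry rat or human sequence, so a sheep arm that differs from them may not be counted there. The name miR-19b-2-5p stands for 1 copy of miR-19b, and no row was named for the other arm of miR-19b-1. On the chromosome X hairpin of the row named miR-18a-5p, the other arm, miR-18b-3p, had 11 counts. For miR-106b no row of the other arm was found among the names of the rule. miR-106a-3p had 27 counts and miR-19a-5p 30 counts in total. The row used for miR-92a-2-5p, with rat sequence, had 3 counts, and the predicted row of that arm on chromosome X had 1. miR-20a, miR-92a and miR-93 had at least 190 counts of the minor arm.

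Among members with rows of both arms, miR-20a had the highest share of the minor arm. The counts of miR-20a-5p can depend on how reads were divided between it and its near copy miR-17-5p. The share can depend on this too. miR-20a-3p had 16.3, 21.7 and 10.6 CPM in QHMM and 25.4, 25.3 and 21.7 CPM in STH. Within QHMM, miR-20a-3p was highest where miR-20a-5p was lowest. Its share of the counts of both arms was 11.1% in QHMM replicate 1 (exact 95% interval 9.35% to 13.1%), 43.1% in replicate 2 (37.2% to 49.1%) and 6.52% in replicate 3 (5.20% to 8.06%). In STH replicates 1, 2 and 3 it was 31.8%, 36.4% and 25.9%. The share was 20.2% ± 19.9 (SD, n = 3) in QHMM and 31.4% ± 5.29 (SD, n = 3) in STH, and the breeds overlapped. Intervals are Clopper-Pearson intervals and cover counting error only.

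miR-92a-1-5p, the minor arm of miR-92a on chromosome 10, took 0.602%, 2.36% and 0.455% of the counts of both arms in QHMM and 1.65%, 2.64% and 1.98% in STH. QHMM replicates 1 and 3 were again lowest. The counts of miR-92a-3p can also come from chromosome X, so this share is not that of 1 hairpin. miR-93-3p, from chromosome 24, took 2.30% to 4.04% in all libraries, and its breeds overlapped with 3.20% ± 0.794 (SD, n = 3) in QHMM and 3.39% ± 0.739 (SD, n = 3) in STH.

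**Figure D3:**
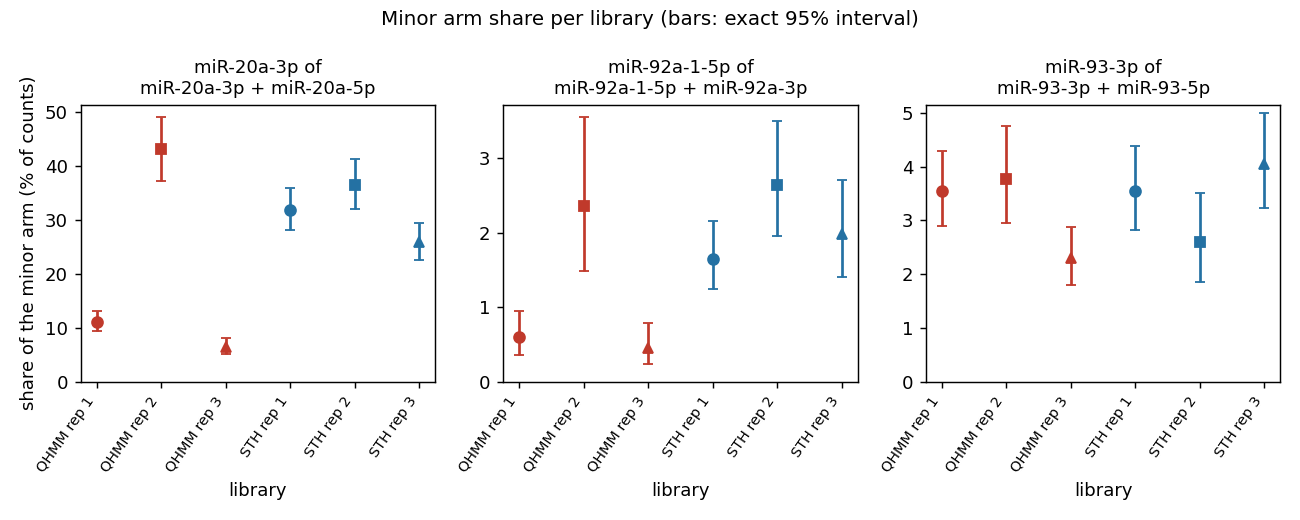
Share of the minor arm in the counts of both arms (percent, 3 panels with separate axes from 0) per library for miR-20a, miR-92a and miR-93, with QHMM in red, STH in blue and exact 95% intervals as bars. QHMM replicate 2 stands at 43.1% for miR-20a-3p while QHMM replicates 1 and 3 stand at 11.1% and 6.52%.

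The breeds differ in meat production, and the comparison of QHMM with STH asks which miRNAs of muscle differ with breed. No miRNA of these clusters passed the test. Of the 22 member names, 14 passed the filter on low counts, all of them with 10 or more counts in each library, and the other 8 had 1 to 30 counts in total and were not tested. In edgeR's quasi-likelihood test over all 1274 names, 0 of the 14 had a Benjamini-Hochberg adjusted p under 0.05, where 2.20% of all names did. With DESeq2 it was also 0 of 14, where 3.86% of all names passed. At an unadjusted p under 0.05 there was 1 of 14, miR-92a-1-5p, where 13.7% of all names were.

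The 14 fitted differences had 8 values above 0 (higher in QHMM) and 6 below, with a median log2 fold change of 0.17, where the median of all names tested was 0.031. The 14 include miR-19b and miR-19b-3p, which have the same sequence. For the leading names of the 10 miRNAs, 7 were above 0 and 3 below, with a median of 0.36. Of all 1274 names, 666 were above 0. Among the 14, the names with the seed AAAGTGC and miR-18a-5p had values above 0, and miR-19b, miR-92a-3p and both minor arms from chromosome 10 had values below 0. With RLE and upper-quartile factors each of the 14 kept its sign. miR-20a-5p had the highest value at 0.91 (standard error 0.46, adjusted p = 0.417 from edgeR), a 95% interval of 0.924-fold to 3.80-fold. miR-106a was at 0.56 (standard error 0.36), with an interval of 0.863-fold to 2.53-fold, and miR-17-5p at 0.30 (standard error 0.30), with 0.790-fold to 1.92-fold. Without QHMM replicate 2, miR-20a-5p had a log2 fold change of 1.32 (adjusted p = 0.0557 from edgeR), and without QHMM replicate 3 it had 0.46 (adjusted p = 0.803). miR-106a was at 0.91 without QHMM replicate 2, 0.32 without QHMM replicate 1 and 0.30 without QHMM replicate 3. miR-106b, at 0.43 with all libraries, was at 0.21 without QHMM replicate 3.

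The libraries of the breeds did not overlap in CPM for 3 of the 14 names, where 17.2% of all names tested did not. miR-93-5p, higher in QHMM, averaged 365 ± 48.0 CPM there (SD, n = 3) and 264 ± 32.7 CPM in the other breed (SD, n = 3). Its log2 fold change was 0.46 with a standard error of 0.25, and edgeR's adjusted p was 0.441. Its neighbour in MCM7, miR-106b, had 0.43 (standard error 0.24, adjusted p = 0.452). The reverse complement row of miR-93-5p had 0.39 (standard error 0.26) in a fit over all rows. miR-19b, lower in QHMM, averaged 11993 ± 758 CPM there (SD, n = 3) and 14403 ± 1275 CPM in the other breed (SD, n = 3). Its log2 fold change was -0.26 with a standard error of 0.20, and edgeR's adjusted p was 0.617. The 95% interval was 0.625-fold to 1.12-fold, so that a difference of 2-fold lies outside it for this most abundant member.

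The counts of miR-92a-1-5p were low, 18, 22 and 12 in the QHMM libraries and 53, 47 and 38 in the STH libraries, with no overlap. In CPM this was 2.65 ± 1.19 (SD, n = 3) against 6.55 ± 1.53 (SD, n = 3). Its log2 fold change was -1.31 (standard error 0.44, unadjusted p = 0.0097, adjusted p = 0.162 from edgeR), with a 95% interval of 0.210-fold to 0.771-fold that takes no account of the number of names tested. The main arm, miR-92a-3p, whose counts can also come from chromosome X, was at -0.098 (standard error 0.33, adjusted p = 0.912). miR-25, with nearly the same sequence, was at 0.048 (standard error 0.27), an interval of 0.690-fold to 1.55-fold.

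**Figure D4:**
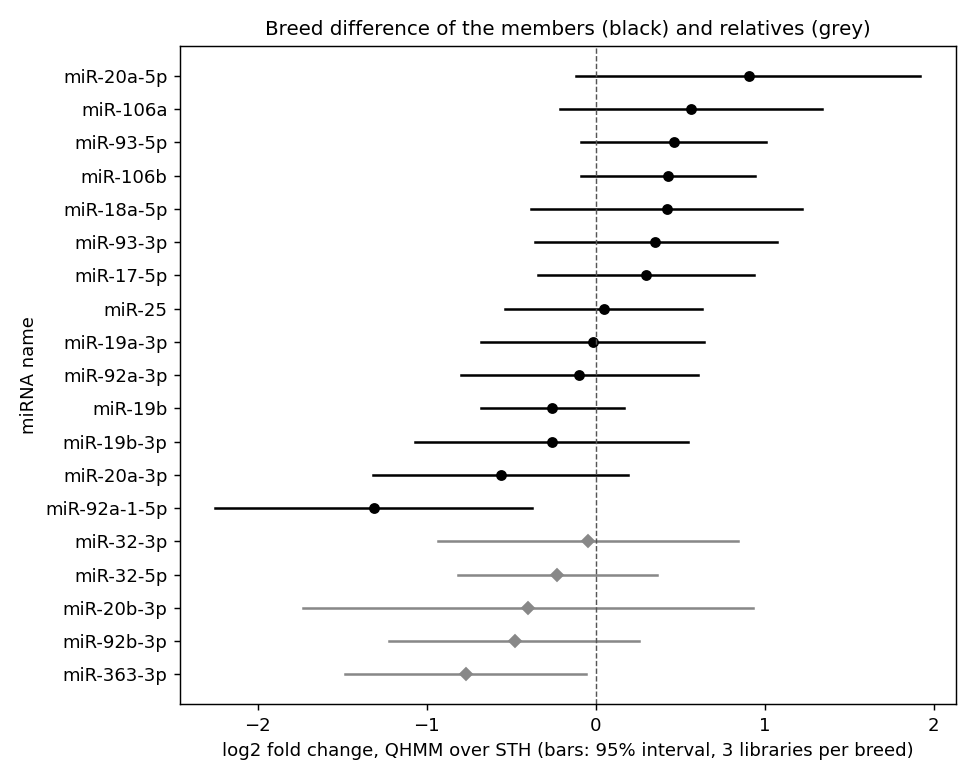
log2 fold change of QHMM over STH with 95% intervals for the 14 members tested (black circles) and the 5 relatives tested (grey diamonds). All intervals of members hold 0 except that of miR-92a-1-5p at -1.31, and miR-20a-5p has the highest value at 0.91.

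The remaining miRNAs of these clusters and the miRNAs with the same seeds, listed as miR-18b, miR-20b, miR-363, miR-92b, miR-32 and miR-367, had at most 101 CPM in any library. This does not count the chromosome X row named miR-18a-5p, which lies on the hairpin of miR-18b-3p and had 86.3 to 310 CPM. Of 11 names, 5 were tested and 0 passed the adjusted threshold in edgeR or DESeq2, while miR-363-3p had an unadjusted p under 0.05. miR-363-3p, the last hairpin of the X cluster, carries the seed of miR-92a-3p (aATTGCACggtatccatctgc). It had 61.4, 38.8 and 27.0 CPM in QHMM and 77.7, 79.5 and 54.7 CPM in STH, and the breeds overlapped. edgeR gave it a log2 fold change of -0.77 with a standard error of 0.33 (adjusted p = 0.334). Its lowest level was in QHMM replicate 3, where its cluster mate miR-106a was among the highest. miR-32-5p, with the same seed from chromosome 2, had 67.3 to 73.8 CPM in QHMM and 69.2 to 101 CPM in STH. miR-20b-5p, which differs from miR-17-5p by T10C alone, had 26 counts over all libraries against 28892 for miR-17-5p. All 5 relatives tested had fitted values below 0, where 608 of all 1274 names did.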

How the data were processed

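The deposited table holds raw read counts for each mature miRNA sequence, 1 column per library, with rows for miRNAs known in sheep, rat, mouse or human and for predicted loci. Submitters' notes on processing name Oar_v3.1 and DESeq. For the aligner, the caller and reads that match several rows, the method is not given in the sources used here. Predicted loci are given by chromosome, with no coordinates.

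The breeds were compared in edgeR 4.0.16 (R 4.3.3) with TMM factors, filterByExpr, a robust quasi-likelihood fit without covariates and Benjamini-Hochberg adjustment over all 1274 names tested. Standard errors were derived from the F statistic. DESeq2 1.42.0, other factors and filters, a replicate block, summed or separate rows of a name, known names alone, and fits without single libraries were the alternatives. Values per library were computed in Python 3.11.15 with pandas 2.3.3. The edgeR test was tried on simulated counts. These were drawn independently for each name from a negative binomial model, with the spread that edgeR fitted to these data. It called 26 of 96 names with a log2 difference of 1 and 88 of 96 with a log2 difference of 2. Of 1022 unchanged names it called 1. Differences in composition between libraries were not simulated, so these counts hold for that model alone. All value columns were mapped, and libraries of a breed differed by far more than sampling noise (chi-square per degree of freedom at least 80.3).

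The members, lists and named miRNAs were chosen with earlier results of these data known. The rule named the leading arm of every miRNA, members past the threshold, the most abundant name per marker list and the 5 nearest patterns among names at 100 CPM or more. Other arms and relatives were described beyond this rule, as were miR-144-3p, miR-144-5p and miR-486. The name miR-1b was added to the muscle list after the names were seen.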

Additional observations from a re-analysis of the deposited data

How the results depend on the processing

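The count of members past the threshold was 0 under all 15 alternatives run. Of 210 fold changes of the 14 tested members under these alternatives, 200 kept the sign of the reported value and 10 did not, and the lowest adjusted p was 0.0557 (miR-20a-5p without QHMM replicate 2). Leaving out each library in turn gave log2 fold changes of -0.042 to 0.54 for miR-17-5p, -0.096 to 0.18 for miR-25, -0.30 to 0.15 for miR-92a-3p, -0.18 to 0.72 for miR-18a-5p and -0.17 to 0.086 for miR-19a-3p. With no filter on low counts, miR-19a-3p was at 0.070. The cause of these changes was not tested. The count over all names, 28, was 64 with no filter, 8 with at least 10 counts in every library, 49 with DESeq2, 6 with known names only and 16 to 35 with each library left out, 16 without QHMM replicate 3, 18 without STH replicate 2 and 16 without STH replicate 3. What lowered or raised it was not tested. The replicate block gave 26 names, 22 of them also called without it. Libraries of the same number correlated by 0.061, 0.239 and 0.119 in their deviations. Each library correlated best with the one that shared its number, which comes from the data alone. The summed level of the members, 16612 CPM, was 12397 with rows of 1 name summed and 11964 over the total of all rows, since both scale to a larger library total. In all, 8 member names had too few counts to test, and the part of depth in this was not tested.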

Other observations

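The 10 miRNAs followed no single pattern over the libraries, and the names nearest to them differ with the weight of miR-19b. Among 194 names at 100 CPM or more outside the members and relatives, likeness was measured as the mean absolute difference of log2 CPM over the 6 libraries after each was centred on its mean. The sum of all members, mostly miR-19b, was nearest to miR-10a (0.066), miR-6240 (0.075), a predicted locus on chromosome 7 with no known name (0.077), miR-374a (0.086) and let-7g (0.11), where the median of the names searched was 0.28. Without miR-19b, the sum was nearest to miR-125b (0.090), the muscle miRNA miR-133 (0.14), miR-339-5p (0.14), miR-103 (0.15) and miR-107 (0.15), with a median of 0.38. The closest names were chosen from many, and 6 libraries are few for such a search.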
